A study of Homo sapiens with 16 samples.

Results

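The 38 mRNAs described here encode proteins that belong to particular small nuclear ribonucleoproteins (snRNPs) of the spliceosome, or that join it as the PRP19 complex and its partners. They were chosen by name, and the rule used no threshold on measured values. Each of the 38 symbols matched 1 of the 58302 gene identifiers in the count tables. The list holds 3 genes of U1, 11 of U2, 2 of U2AF, 5 of U4/U6 and the tri-snRNP, 6 of U5, 3 of U11/U12 and 8 of the PRP19 complex and related factors. It holds no Sm, LSM, SR, hnRNP or DEAD-box genes, which act in several particles or outside the spliceosome. RNA was sequenced from HEK293 cells, an established line derived from human embryonic kidney, in 16 libraries. The siRNAG5 cells had received an siRNA against Gemin5 at 100 nM with Lipofectamine 2000, and the Ctrl cells had not. The sample labels call the Ctrl cells untreated, whereas the paper's Gemin5 immunoblot took cells with a control siRNA as Ctrl and the protocol lists that siRNA, so labels and paper differ on what the Ctrl cells received. From each kind of cells, RNA of the cytoplasmic lysate (Input) and of pooled polysomal gradient fractions (Polysome) gave 4 libraries per group. The time between transfection and harvest is not given in the sources used here, and Gemin5 was silenced with 1 siRNA sequence in 1 cell line.

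Splicing removes introns in steps that are carried out by the snRNPs. U1 recognises the 5′ splice site, U2 with U2AF the branch point and the 3′ splice site, and U4/U6 and U5 then join as the tri-snRNP, which is rearranged into the catalytic centre with the help of the PRP19 complex. U11 and U12 replace U1 and U2 on a rare class of introns. Gemin5 is the member of the SMN complex that binds snRNAs before the ring of Sm proteins is placed on them, and it also binds ribosomes and mRNAs. The study asked which mRNAs change on polysomes when Gemin5 is depleted, and the mRNAs of snRNP-specific proteins are followed here in both fractions.

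The siRNA is shown because its seed, bases 2 to 8 of the strand that pairs with the mRNA, can also meet other mRNAs. Its 19 paired bases matched the GEMIN5 mRNA once, in the coding part of exon 18 of 28 (GRCh38, chr5:154904608-154904626, minus strand). In the strand given in the labels the capitals mark the seed match, and in the strand complementary to it the capitals mark the seed.
siRNA strand in the labels: ccuuaaucaagAAGAGAAauu
complementary strand: uUUCUCUUcuugauuaagg

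The promoters of 4 members that changed in both fractions of siRNAG5 cells are shown next, 250 bases before to 50 bases after the annotated start, from RefSeq (GRCh38.p14). U2AF2, SNRNP25 and SF3B5 fell in both fractions, and SNRNP48 rose in both, in Input by less than the fold limit of a call. Capitals mark matches on either strand. The letters searched were CCGGAAG for the ETS motif, GGGCGG for the GC box, the pentamer that gives the CCAAT box its name, and CACGTG for the E-box. U2AF2 lies at chr19:55654785-55655084, plus strand, SNRNP25 at chr16:53578-53877, plus strand, SF3B5 at chr6:144095524-144095823, minus strand, and SNRNP48 at chr6:7589948-7590247, plus strand.
U2AF2: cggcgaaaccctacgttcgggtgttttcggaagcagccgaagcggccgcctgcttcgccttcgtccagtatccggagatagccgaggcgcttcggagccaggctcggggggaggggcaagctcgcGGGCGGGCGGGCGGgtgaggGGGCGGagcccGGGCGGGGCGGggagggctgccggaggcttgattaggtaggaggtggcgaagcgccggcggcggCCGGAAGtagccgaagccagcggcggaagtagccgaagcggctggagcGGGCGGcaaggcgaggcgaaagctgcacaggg
SNRNP25: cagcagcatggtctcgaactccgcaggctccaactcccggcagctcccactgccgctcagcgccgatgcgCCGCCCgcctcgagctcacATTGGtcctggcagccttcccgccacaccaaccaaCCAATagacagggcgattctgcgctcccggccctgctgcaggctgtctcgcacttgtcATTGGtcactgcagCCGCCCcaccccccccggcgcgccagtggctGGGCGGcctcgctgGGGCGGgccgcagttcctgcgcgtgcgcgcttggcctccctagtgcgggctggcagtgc
SF3B5: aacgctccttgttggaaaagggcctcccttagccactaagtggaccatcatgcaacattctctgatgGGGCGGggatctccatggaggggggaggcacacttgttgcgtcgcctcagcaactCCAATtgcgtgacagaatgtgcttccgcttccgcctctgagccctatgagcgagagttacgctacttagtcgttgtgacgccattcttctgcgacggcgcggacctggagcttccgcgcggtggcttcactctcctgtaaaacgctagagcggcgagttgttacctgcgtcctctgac
SNRNP48: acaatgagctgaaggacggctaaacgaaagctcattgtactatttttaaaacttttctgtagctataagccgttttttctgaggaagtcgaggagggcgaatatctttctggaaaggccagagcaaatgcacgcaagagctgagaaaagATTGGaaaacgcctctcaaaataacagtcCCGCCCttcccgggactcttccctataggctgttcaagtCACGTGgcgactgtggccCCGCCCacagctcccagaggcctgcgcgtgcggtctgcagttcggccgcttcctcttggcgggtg
The U2AF2 window held 7 GC boxes, some of them overlapping, and 1 ETS match, the SNRNP25 window 4 GC boxes and 3 CCAAT boxes, and the SF3B5 window 1 of each of these boxes. SNRNP48 was the only one of the 4 with an E-box. Promoters of 35 of the 38 members were in the table, and those of PRPF3, SF3B3 and SNRNP35 were not. Among the 35, the ETS letters stood in 17 (48.6%), against 19.8% of 10419 promoters of genes tested in Input and 10.3% of all 35116 promoters. The GC box stood in 71.4% of member promoters, 72.0% of tested genes and 45.0% of all promoters, the CCAAT box in 42.9%, 37.0% and 34.6%, and the E-box in 8.57%, 10.3% and 7.26%. Also searched were the NRF1 core GCATGCGC (8.57%, 5.71% and 3.05%), the YY1 letters AAGATGGCG (5.71%, 4.11% and 1.75%) and the TATA box TATAAA (5.71%, 5.13% and 11.5%), none of which stood in the 4 windows shown. Of the 10 members called lower in Input, 3 held the ETS letters, 8 the GC box, 5 the CCAAT box and 0 the E-box. These are matches of letters, and binding was not measured.

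The 16 libraries held 11145324 to 24511299 reads on genes. Reads aligned to several places made up 4.88 to 6.04% in Input and 21.2 to 42.4% in Polysome. All 6 HEK293 marker genes were detected in every library. GEMIN5 was read in CPM, the counts scaled to the library's total and normalized between the 16 libraries. It was at 15.9, 18.9, 16.01 and 20.7 CPM in Input Ctrl and at 7.46, 6.51, 6.22 and 6.68 CPM in Input siRNAG5 (log2 FC -1.40, SE 0.12, adjusted p = 3.11e-10). In Polysome GEMIN5 was also lower in siRNAG5 (log2 FC -1.44, SE 0.21, adjusted p = 0.00477). Before normalization between libraries, the summed level of 10 liver genes was 87.7 to 156.2 CPM in the 4 Polysome Ctrl libraries. In Input Ctrl 3 and 4 it was 99.1 and 89.5 CPM. It was at most 1.27 CPM in Input Ctrl 1 and 2 and in the 8 siRNAG5 libraries, where 7 to 9 of the 10 genes were at 0. The third principal component of the 16 libraries, with 8.98% of the variance, set Polysome Ctrl 1, siRNAG5 1 and siRNAG5 4 (scores 31.7 to 32.8) apart from the other Polysome libraries (-23.5 to -1.0), across the treatments. This split was visible in the members: 18 of the 38 (47.4%) were lower in each of these 3 libraries than in each of the other 5 Polysome libraries, against 13.7% of the 14420 genes tested there, and 0 members were higher (7.4% of genes). The 18 were SNRNP70, SNRPA, SF3A1, SF3A2, SF3A3, SF3B1, SF3B2, SF3B3, SF3B4, PRPF3, PRPF6, SNRNP200, EFTUD2, PRPF19, CDC5L, PLRG1, CRNKL1 and RBM22. The counts of calls and the Polysome changes of the members described are therefore given with and without the 3 libraries.

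In Input Ctrl the levels per exon length spanned a wide range within each particle. In RPKM, the count scaled to exon length and to the library's reads on genes (mean ± SD, n = 4), SF3B5 stood at 694 ± 36.5, SF3B6 at 529 ± 11.1 and SNRPC at 449.8 ± 20.3, and the median of the 38 was 25.8. SF3B5 and SF3B6 are the small subunits of the SF3b complex, and SNRPC is the U1 protein that helps U1 hold the 5′ splice site. These 3 led with the longest transcript as the length too, with SF3B6 then ahead of SF3B5. The large SF3b subunits were far lower in RPKM, with SF3B1, which encloses the branch helix, at 8.59 ± 0.662 and SF3B3 at 7.02 ± 0.795. Among U5 mRNAs the level ran from 60.7 ± 4.25 RPKM for SNRNP40, a WD-repeat protein, to 6.35 ± 0.989 for SNRNP200, the helicase that unwinds U4 from U6. The neighbours BCAS2 (102 ± 6.94), SNRPA (98.7 ± 7.09) and SNRNP25 (98.04 ± 4.94) overlapped in their ranges, as did CRNKL1 (4.53 ± 0.364) and CDC5L (4.45 ± 0.148). SNRNP48, which recognises the 5′ splice site of minor introns, was at 1.72 ± 0.233 RPKM and had only U2AF1 (0.223 ± 0.0441) below it. The U2AF1 value is uncertain: it rested on 20 to 54 reads per library, and 5 to 33 more were counted on a second U2AF1 identifier that the annotation marks as an artifactual duplicate on chromosome 21, so reads fitting both places would not count for either.

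**Figure D1:**
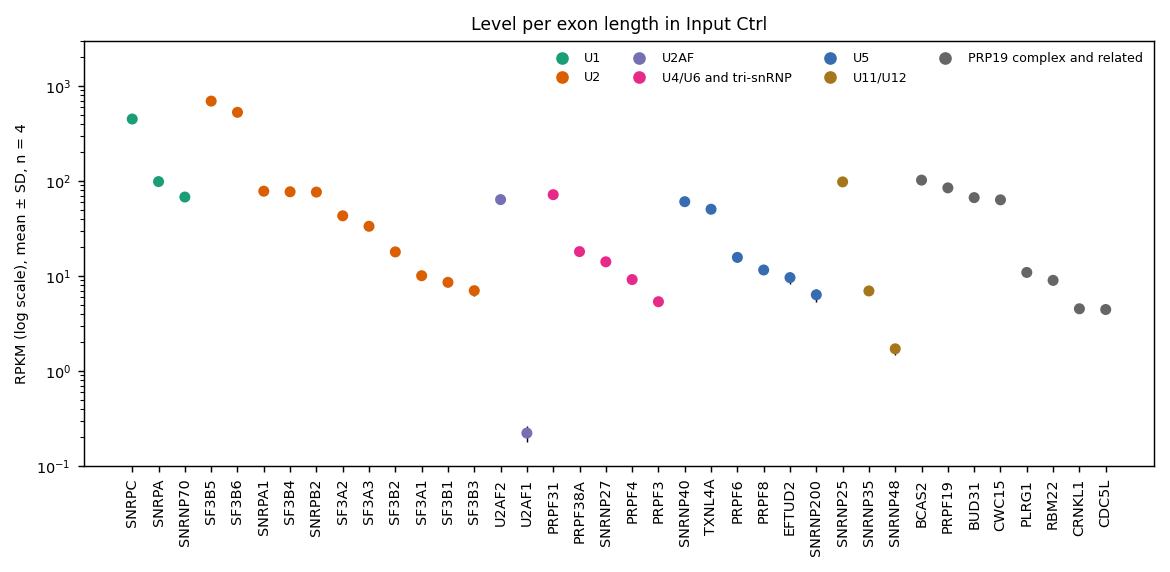
Level of the 38 mRNAs in Input Ctrl as RPKM over union exons, on a log scale, ordered within each particle (points, mean of 4 libraries, bars, SD). SF3B5, SF3B6 and SNRPC sit at 449.8 RPKM or above, most of the others between 4.45 and 102.3, and SNRNP48 and U2AF1 lowest.

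In Input, the cytoplasmic lysate, 10 of the 38 mRNAs were called lower in siRNAG5 cells, as were 6.02% of the 14134 genes tested, and 0 were called higher (10.5% of genes). A call required an adjusted p under 0.05 in edgeR's quasi-likelihood test, adjusted over all genes by Benjamini-Hochberg, and a log2 FC beyond 0.5. The 10 included the minor spliceosome protein SNRNP25, both U2AF subunits, SF3B4, SF3B5 and SNRPB2 of U2, SNRNP40 of U5 and PRPF19. The others were PRPF4 and PRPF38A, from the group listed as U4/U6 and the tri-snRNP. With adjusted p alone, 22 fell (19.1% of genes) and 5 rose (17.9% of genes), and the 5 were PRPF8, SNRNP200, SNRNP48, SF3B3 and SNRPA. The 4 siRNAG5 libraries lay below the 4 Ctrl libraries for 21 members (19.1% of genes) and above them for 4 (15.1% of genes). The median log2 FC was -0.23, against 0.04 over all genes tested. The members' summed level before normalization between libraries was 5778 to 6328 CPM in Ctrl and 5206 to 5480 CPM in siRNAG5, and these ranges did not overlap. In bulk RNA, fewer cells holding an mRNA and less of it per cell cannot be told apart. Without the 2 Ctrl libraries that held liver reads, 11 members were called lower, PRPF31 being added, and 0 higher, against 6.64% and 9.97% of the 14724 genes tested.

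In Polysome, 6 members were called lower in siRNAG5 cells (4.0% of the 14420 genes tested) and 1 was called higher (3.95% of genes). U2AF1, U2AF2, SNRNP25, SF3B5 and PRPF38A had also been called lower in Input (5 of the 10 called there and 5 of the 6 called here), and PRPF31 was the other. Over all genes 340 were called lower in both, which is 40.0% of the 851 called in Input and 58.9% of the 577 called in Polysome. SNRNP48 was the one that rose. For 12 members the siRNAG5 libraries lay below the Ctrl libraries (10.0% of genes), and for SNRNP48 alone they lay above (8.29% of genes). The median log2 FC was -0.34, against 0.03 over all genes tested. The members' summed level before normalization between libraries was 6512 to 7278 CPM in Ctrl and 6103 to 7308 CPM in siRNAG5, and these ranges overlapped. The normalization factors over all 16 libraries were 0.97 to 1.25 in Polysome Ctrl and 1.29 to 1.59 in Polysome siRNAG5. The size of the Polysome changes thus depends on this scaling, and for some members so does the direction. In mean RPKM, not normalized between libraries, SF3B6 rose from 755.6 in Ctrl to 889.7 in siRNAG5 and BCAS2 from 168.2 to 187.5. Both had a negative log2 FC and were not called. The median RPKM of the 38 rose from 29.2 to 32.2. The members called lower were lower in mean RPKM too, and SNRNP48 was higher. Of the 12 members set apart in CPM, only SF3B5, PRPF31 and PRPF38A kept their groups apart in RPKM. The calls rested on few libraries: without Polysome Ctrl 2, or without siRNAG5 1, 0 members were called lower, and without siRNAG5 2 or 3 it was 3. Without the 3 libraries that stood apart, 13 members were called lower (12.1% of the 14717 genes tested) and SNRNP48 higher (9.02% of genes). Liver genes were detected in the 4 Polysome Ctrl libraries and were near 0 in the 4 Polysome siRNAG5 libraries, so their part cannot be told apart from the treatment in this fraction. The 7 calls added without the 3 libraries were SNRPC, SNRPA1, SNRPB2, TXNL4A, PRPF19, CWC15 and BUD31.

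**Figure D2:**
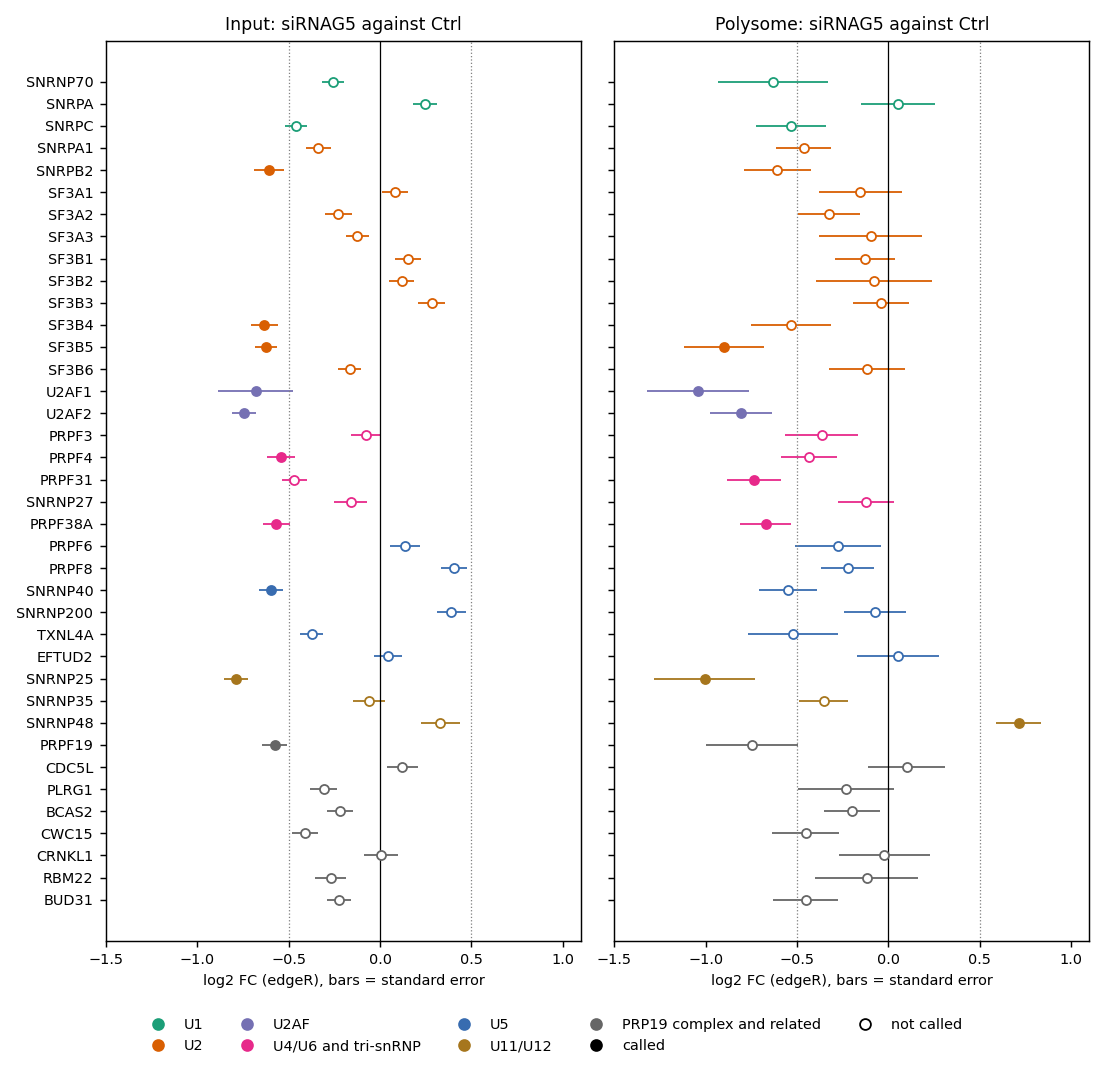
Change in siRNAG5 against Ctrl cells for the 38 mRNAs in Input (left) and Polysome (right), as log2 FC with its standard error, coloured by particle, with filled points for called members and dotted lines at 0.5 in each direction. In Input 10 points on the left side are filled and none on the right. In Polysome the standard errors are wider, 6 are filled on the left and SNRNP48 on the right.

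Whether the siRNAG5 change differed between the fractions was tested in 1 fit of all libraries, which did not pair Input with Polysome libraries. By edgeR 0 members and 0.0% of the 14958 genes tested were called, and at an unadjusted p under 0.05 there were 3 members and 1089 genes. The 3 members at that unadjusted p were PRPF8 (log2 difference -0.65, SE 0.17, adjusted p = 0.374), SNRNP200 (-0.50, SE 0.20, adjusted p = 0.556) and SNRNP48 (0.36, SE 0.15, adjusted p = 0.603). DESeq2 called 0 members, 11 genes lower and 18 higher. Without the 3 libraries that stood apart, PRPF8 (-0.57, adjusted p = 0.0438) and SNRNP25 (-0.67, adjusted p = 0.0303) passed and were lower, which is 2 of 38 members, where 4.3% of the 15343 genes tested were called lower and 0.691% higher, so the members' share was near that of all genes. The median over members was -0.14, against -0.06 over all genes.

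Of the U1 mRNAs, 2 fell and 1 rose in Input at adjusted p alone, and none was called. SNRPC was at 706, 798, 747 and 699 CPM in Input Ctrl and at 521, 534, 550.2 and 519 CPM in Input siRNAG5 (log2 FC -0.46, SE 0.06, adjusted p = 6.69e-07), with the groups apart. In Polysome its range was 482 to 713 CPM in Ctrl and 344 to 468 CPM in siRNAG5 (log2 FC -0.53, SE 0.19, adjusted p = 0.0971, and -0.70, adjusted p = 0.0291, without the 3 libraries). SNRNP70, which binds the first stem-loop of U1, fell in Input by 0.26 (adjusted p = 0.0013). In Polysome it had 84.8, 186.3, 229 and 205 CPM in Ctrl and 73.9, 150.2, 134 and 81.4 CPM in siRNAG5, so the libraries that stood apart held its low values in both treatments (log2 FC -0.63, SE 0.30, adjusted p = 0.1997, and -0.48, SE 0.16, adjusted p = 0.0464, without the 3 libraries). SNRPA, which binds the second stem-loop, rose in Input (log2 FC 0.25, SE 0.07, adjusted p = 0.00384) and had a log2 FC of 0.05 in Polysome with and without the 3 libraries.

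Of the 11 U2 mRNAs, SNRPB2, SF3B4 and SF3B5 were called lower in Input, SNRPA1, SF3A2 and SF3B6 fell at adjusted p alone, and SF3B3 rose at adjusted p alone. SNRPB2, the relative of SNRPA that binds U2 snRNA with SNRPA1, was at 271, 295, 253 and 237 CPM in Input Ctrl and at 138, 177, 189 and 181 CPM in Input siRNAG5 (log2 FC -0.61, SE 0.08, adjusted p = 6.69e-07). Its partner SNRPA1 fell less (log2 FC -0.34, SE 0.07, adjusted p = 1.82e-04). For both mRNAs the groups were apart in Input, and in Polysome as well, where neither passed (adjusted p = 0.0594 and 0.0745) until the 3 libraries were left out (log2 FC -0.63 and -0.60). SF3B4, an RNA-binding SF3b subunit near the branch point, was at 152, 195, 174 and 174 CPM in Input Ctrl and at 119, 105, 107 and 113 CPM in Input siRNAG5 (log2 FC -0.63, SE 0.07, adjusted p = 6.92e-08). In Polysome its siRNAG5 range (57.7 to 94.5 CPM) overlapped the Ctrl range (68.8 to 129 CPM), the low value of each treatment being in libraries that stood apart (log2 FC -0.53, adjusted p = 0.1407, and -0.44, adjusted p = 0.0449, without the 3 libraries). SF3B5, whose mRNA has a single exon, was at 595, 684, 627 and 625 CPM in Input Ctrl and at 405, 412, 421 and 390.2 CPM in Input siRNAG5 (log2 FC -0.62, SE 0.06, adjusted p = 4.55e-09). In Polysome it was at 734, 827, 521 and 628 CPM in Ctrl and at 379.9, 287, 275 and 474 CPM in siRNAG5 (log2 FC -0.90, SE 0.22, adjusted p = 0.0319). No SF3B5 siRNAG5 library reached the lowest Ctrl library in either fraction, and the Polysome call was kept in 2 of 8 fits that left out 1 library and without the 3 libraries (log2 FC -1.18).

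The other U2 mRNAs were not called. SF3B6, which touches the branch point adenosine, fell in Input by 0.16 and SF3A2 by 0.23 (adjusted p = 0.0391 and 0.0162, at most 0.1538 and 0.0806 with 1 library left out), and SF3B3 rose by 0.28 (adjusted p = 0.00309). SF3A1, SF3A3, SF3B1 and SF3B2 had log2 FC between -0.12 and 0.15 and did not pass. In Polysome these 7 mRNAs lay between -0.32 and -0.04, with standard errors of 0.15 to 0.32, and none passed, nor did any without the 3 libraries (-0.30 to 0.11).

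Both U2AF mRNAs were called lower in both fractions. U2AF2, the subunit that binds the polypyrimidine tract, was at 317, 371, 332 and 341 CPM in Input Ctrl and at 209, 189, 202 and 206 CPM in Input siRNAG5 (log2 FC -0.74, SE 0.07, adjusted p = 5.67e-10). Its Polysome levels were 385, 459, 440.4 and 425 CPM in Ctrl and 178, 266, 274 and 231 CPM in siRNAG5 (log2 FC -0.81, SE 0.17, adjusted p = 0.0182). The groups were apart in each fraction in CPM. In RPKM, not normalized between libraries, the Polysome ranges overlapped (102.6 to 136.3 in Ctrl and 59.7 to 107.6 in siRNAG5). The Polysome call was kept in 6 of 8 fits that left out 1 library and without the 3 libraries (log2 FC -0.66). U2AF1, which reads the AG of the 3′ splice site, was at 3.38, 4.04, 2.401 and 3.22 CPM in Input Ctrl and at 2.198, 1.75, 1.94 and 2.21 CPM in Input siRNAG5 (log2 FC -0.68, SE 0.21, adjusted p = 0.00953). In Polysome it was at 2.67, 3.502, 2.62 and 1.81 CPM in Ctrl and at 1.33, 1.31, 0.825 and 1.57 CPM in siRNAG5 (log2 FC -1.04, SE 0.28, adjusted p = 0.0425). Its groups did not overlap in either fraction, but the few reads and the duplicate identifier limit these values, and the calls were lost without Input Ctrl 2 and in 6 of 8 such fits in Polysome, while without the 3 libraries its log2 FC was -1.26 (adjusted p = 0.0242).

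Among the U4/U6 and tri-snRNP mRNAs, 3 of 5 fell in Input at adjusted p alone and the other 2, PRPF3 and SNRNP27, had log2 FC of -0.08 and -0.16. PRPF38A, which enters with the tri-snRNP before activation, was at 133, 149.7, 121 and 133 CPM in Input Ctrl and at 83.8, 98.6, 93.9 and 83.5 CPM in Input siRNAG5 (log2 FC -0.57, SE 0.07, adjusted p = 5.09e-07). Its Polysome levels were 122, 142, 107 and 117 CPM in Ctrl and 67.9, 79.3, 78.6 and 71.7 CPM in siRNAG5 (log2 FC -0.67, SE 0.14, adjusted p = 0.0176). The groups were apart in each fraction, and without the 3 libraries the Polysome log2 FC was -0.57. PRPF4, a U4/U6 protein that partners PRPF3, was at 55.2, 58.5, 48.7 and 52.02 CPM in Input Ctrl and at 36.7, 35.1, 36.01 and 38.3 CPM in Input siRNAG5 (log2 FC -0.54, SE 0.08, adjusted p = 2.64e-06). In Polysome it was at 78.4, 88.8, 85.6 and 84.03 CPM in Ctrl and at 47.7, 64.1, 74.9 and 55.2 CPM in siRNAG5 (log2 FC -0.43, SE 0.15, adjusted p = 0.0963, and -0.25, adjusted p = 0.1966, without the 3 libraries). The PRPF4 groups were apart in Polysome too, although the test was not passed, and without Input Ctrl 2 its Input log2 FC was -0.49. PRPF31, which holds U4 snRNA and whose mutations cause a form of retinitis pigmentosa, was at 245, 289.5, 232 and 249 CPM in Input Ctrl and at 185, 179, 193 and 171 CPM in Input siRNAG5 (log2 FC -0.47, SE 0.07, adjusted p = 3.49e-06). Its Polysome levels were 263, 269.7, 198 and 239 CPM in Ctrl and 129, 145, 140.0 and 152 CPM in siRNAG5 (log2 FC -0.74, SE 0.15, adjusted p = 0.0166, and -0.67, adjusted p = 0.0177, without the 3 libraries). PRPF31 thus was called in Polysome and missed the fold limit in Input, and the difference between the fractions was not shown (log2 difference -0.29, adjusted p = 0.735).

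U5 mRNAs moved in opposite directions in Input. SNRNP40 was at 297, 349.8, 297 and 302 CPM in Input Ctrl and at 197, 210.4, 207 and 203 CPM in Input siRNAG5 (log2 FC -0.60, SE 0.07, adjusted p = 3.03e-08), and TXNL4A, a small thioredoxin-like protein, fell too (log2 FC -0.38, SE 0.06, adjusted p = 1.79e-05). The Input groups were apart for both. PRPF8, the scaffold of the catalytic centre, was at 153, 187, 176 and 187 CPM in Input Ctrl and at 244, 226, 215 and 237 CPM in Input siRNAG5 (log2 FC 0.40, SE 0.07, adjusted p = 3.76e-05). SNRNP200 was at 76.6, 96.8, 93.2 and 108 CPM in Input Ctrl and at 123, 124, 121 and 119 CPM in Input siRNAG5 (log2 FC 0.39, SE 0.08, adjusted p = 2.16e-04). All siRNAG5 libraries lay above all Ctrl libraries for both mRNAs, with changes under the fold limit. In Polysome PRPF8 had 36.7, 29.1, 29.4 and 40.8 CPM in Ctrl and 25.8, 29.8, 27.6 and 29.9 CPM in siRNAG5 (log2 FC -0.22, SE 0.15, adjusted p = 0.347, and -0.14 without the 3 libraries), and these overlapped. SNRNP200 overlapped as well (26.98 to 39.1 and 22.6 to 33.8 CPM), with a log2 FC of -0.08 and of 0.07 without the 3 libraries. SNRNP40 was lower in every Polysome siRNAG5 library (168 to 181 CPM) than in any Ctrl library (209.6 to 313 CPM) but just missed the test (log2 FC -0.55, SE 0.16, adjusted p = 0.0532, and -0.48, adjusted p = 0.0879, without the 3 libraries). TXNL4A had a Polysome log2 FC of -0.52 (adjusted p = 0.1939), and of -0.92 (adjusted p = 0.00987) without the 3 libraries. PRPF6, the bridge between U5 and U4/U6, and the GTPase EFTUD2 had Input log2 FC of 0.14 and 0.04 and did not pass.

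The 3 U11/U12 mRNAs took 3 different courses. SNRNP25 was at 277, 317, 294 and 273 CPM in Input Ctrl and at 160.4, 162, 183 and 161 CPM in Input siRNAG5, the largest decrease among the 38 in that fraction (log2 FC -0.79, SE 0.07, adjusted p = 3.75e-10). In Polysome it was at 201, 182, 139 and 116.4 CPM in Ctrl and at 91.2, 46.7, 57.6 and 115.6 CPM in siRNAG5 (log2 FC -1.01, SE 0.28, adjusted p = 0.0476). The groups were barely apart in Polysome, the closest values being Ctrl 4 and siRNAG5 4, and the call was kept in 2 of 8 fits that left out 1 library and without the 3 libraries (log2 FC -1.44, adjusted p = 0.0012). SNRNP48 was at 12.9, 11.1, 14.8 and 14.02 CPM in Input Ctrl and at 15.1, 17.7, 15.9 and 16.9 CPM in Input siRNAG5 (log2 FC 0.33, SE 0.11, adjusted p = 0.0169). Its Polysome levels were 18.99, 16.5, 17.9 and 18.4 CPM in Ctrl and 28.4, 29.4, 29.2 and 27.3 CPM in siRNAG5 (log2 FC 0.71, SE 0.12, adjusted p = 0.0102). Its Polysome groups were tight and well apart, and the call was kept in 8 of 8 fits and without the 3 libraries (log2 FC 0.79). SNRNP35, the counterpart of SNRNP70 on U11, had a log2 FC of -0.06 in Input and -0.35 in Polysome (adjusted p = 0.625 and 0.113), and in Polysome its siRNAG5 range (27.4 to 31.5 CPM) lay below the Ctrl range (33.6 to 45.7 CPM), with a log2 FC of -0.44 (adjusted p = 0.0449) without the 3 libraries. Before normalization between libraries, its mean was 9.13 RPKM in Polysome Ctrl and 9.13 RPKM in Polysome siRNAG5.

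In the PRP19 complex and its partners, 6 of 8 mRNAs fell in Input at adjusted p alone and 1 was called. PRPF19, the ubiquitin ligase that names the complex, was at 288, 352, 329 and 339 CPM in Input Ctrl and at 210.1, 210.1, 222 and 227 CPM in Input siRNAG5 (log2 FC -0.58, SE 0.07, adjusted p = 8.17e-08). In Polysome it was at 154, 236, 253 and 262 CPM in Ctrl and at 82.9, 164, 175 and 99.8 CPM in siRNAG5 (log2 FC -0.75, SE 0.25, adjusted p = 0.0837, and -0.51, adjusted p = 0.0341, without the 3 libraries), and the groups overlapped, with Ctrl 1, one of the libraries that stood apart, lying low. CWC15 (-0.41), PLRG1 (-0.31), RBM22 (-0.27), BUD31 (-0.23) and BCAS2 (-0.22) fell in Input by log2 FC, with adjusted p between 2.09e-05 and 0.0157. PLRG1 and BCAS2 are core subunits, and RBM22 contacts U6 and the pre-mRNA in the catalytic centre. CDC5L, the other core subunit, and CRNKL1 had log2 FC of 0.12 and 0.00. In Polysome RBM22 was low in Ctrl 1, siRNAG5 1 and siRNAG5 4, the libraries that stood apart, with 22.7, 49.9, 49.2 and 45.9 CPM in Ctrl and 26.6, 49.2, 48.5 and 24.996 CPM in siRNAG5 (log2 FC -0.12, and 0.07 without the 3 libraries).

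**Figure D3:**
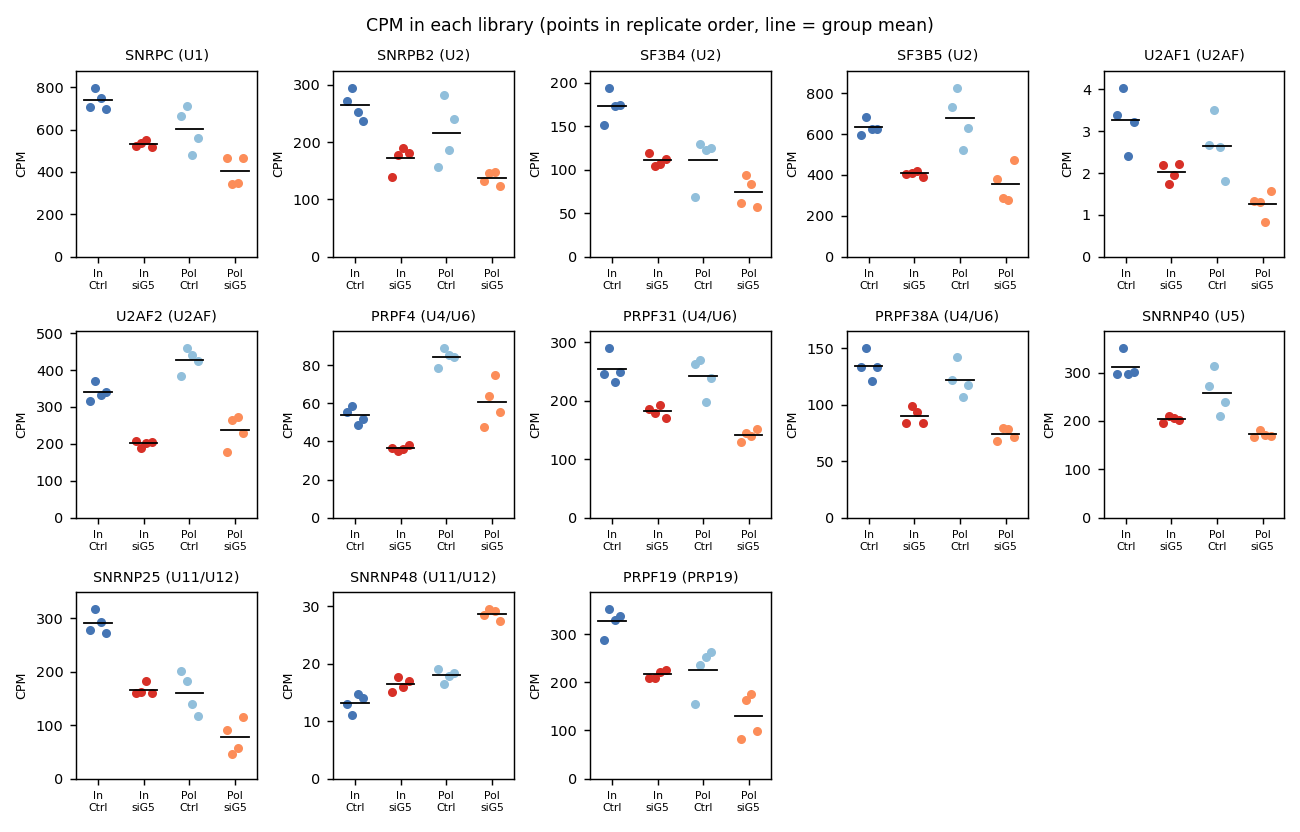
CPM (normalized over all 16 libraries) of the 12 members called in Input or Polysome and of SNRPC, in each library of Input (In) and Polysome (Pol) from Ctrl and siRNAG5 (siG5) cells, with a line at each group mean and each vertical axis starting at 0. In Input the siRNAG5 points lie below the Ctrl points in every panel but that of SNRNP48, and the Polysome points of SF3B4 and PRPF19 overlap.

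Within each treatment the place of these mRNAs on polysomes was read from Polysome against Input, relative to the other mRNAs of the libraries. In Ctrl cells 15 members were called lower in Polysome (18.8% of the 13666 genes tested) and 1, PRPF4, higher (20.8% of genes), with a median log2 FC of -0.34 against -0.03 over all genes. In siRNAG5 cells 17 were called lower (21.2% of the 14795 genes tested) and 2, PRPF4 and SNRNP48, higher (23.9% of genes), with a median of -0.47 against -0.04. Before normalization between libraries the members' summed level was instead higher in Polysome than in Input. In Ctrl cells it was 5778 to 6328 CPM in Input and 6512 to 7278 CPM in Polysome. In siRNAG5 cells it was 5206 to 5480 and 6103 to 7308 CPM. The normalization factors over all 16 libraries were 0.74 to 0.78 in Input Ctrl and 0.81 to 0.85 in Input siRNAG5, below those of Polysome given above. These calls and medians thus depend on this scaling. Called lower in both treatments were 13, which is 86.7% of the 15 and 76.5% of the 17, and over all genes 2140 were, 83.4% of the 2566 called in Ctrl and 68.3% of the 3132 called in siRNAG5 cells. Without Polysome Ctrl 1, 12 were called lower (19.8% of the 13910 genes tested) and 1 higher (21.9% of genes) in Ctrl cells, SF3A3, SF3B4 and PRPF19 being lost. Without the 2 Polysome siRNAG5 libraries that stood apart, in siRNAG5 cells 14 were called lower (23.5% of the 15361 genes tested) and 4 higher (29.7% of genes), with SNRPA, SF3B2, PRPF19 and PLRG1 lost and BUD31 (-0.57) added among the lower and U2AF2 (0.60) and RBM22 (0.65) among the higher.

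In Ctrl cells the 4 lowest values were those of U5 mRNAs. PRPF8 stood at 153 to 187 CPM in Input and at 29.1 to 40.8 CPM in Polysome of Ctrl cells (log2 FC -2.36, SE 0.14, adjusted p = 1.43e-08), and its log2 FC was -2.94 (SE 0.11) in siRNAG5 cells. PRPF6 (-1.60 and -1.98), EFTUD2 (-1.59 and -1.54) and SNRNP200 (-1.55 and -1.97) followed in Ctrl and siRNAG5 cells, and each was called in all fits that left out 1 library. SNRNP40, also of U5, was not called in either (log2 FC -0.26 and -0.16). SNRNP70 (-1.24 and -1.58), CRNKL1 (-1.12 and -1.10), PRPF3 (-1.01 and -1.26), SF3B3 (-0.98 and -1.26), SNRNP25 (-0.85 and -1.03), PLRG1 (-0.93 and -0.81), SF3A2 (-0.81 and -0.87), SF3B1 (-0.77 and -1.01) and PRPF19 (-0.52 and -0.65) were called lower in both treatments as well. In Ctrl cells SF3A3 (-0.56) and SF3B4 (-0.63) were also called lower, and in siRNAG5 cells SNRPA (-0.63), SF3B2 (-0.59), U2AF1 (-0.61) and TXNL4A (-0.51). In mean RPKM, not normalized between libraries, SNRPA was instead higher in Polysome (136.9) than in Input (125.9) of siRNAG5 cells. So were SF3B2 (23.79 and 20.96), U2AF1 (0.1624 and 0.1502), TXNL4A (47.9 and 41.95) and PRPF19 (66.7 and 61.3). PRPF19 was also higher in Ctrl cells (86.5 and 84.8). The other members called lower were lower in mean RPKM too, SF3A3 in Ctrl cells only slightly (33.2 and 33.4). When 1 library was left out, the siRNAG5 call was kept in 1 of 8 fits for U2AF1, 2 of 8 for SF3B2 and for TXNL4A, 4 of 8 for PRPF19 and 8 of 8 for SNRPA, and the Ctrl call in 5 of 8 for SF3A3, 7 of 8 for SF3B4 and 6 of 8 for PRPF19. SNRPA, SF3B2, U2AF1, TXNL4A, SF3A3 and SF3B4 did not pass the test of the difference between treatments (adjusted p from 0.8655 to 0.999). PRPF4 was at 78.4, 88.8, 85.6 and 84.03 CPM in Polysome against 55.2, 58.5, 48.7 and 52.02 CPM in Input of Ctrl cells (log2 FC 0.66, SE 0.11, adjusted p = 1.32e-04), and its polysomal libraries were all above the others. SNRNP48 gained in siRNAG5 cells (log2 FC 0.89, SE 0.11, adjusted p = 4.62e-05), and in Ctrl cells its log2 FC of 0.46 (adjusted p = 0.00989) was under the fold limit. Reads that aligned to several places were more frequent in Polysome, as given above, and their part in these values was not tested.

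The long members lay below the median of other long mRNAs on this scale. Canonical mRNAs over 6000 nt had a median Polysome against Input log2 FC of 0.36 in Ctrl cells (2174 protein-coding genes), whereas the 5 members of that length (PRPF8, SNRNP200, SF3B1, SF3B3 and CDC5L) ran from -2.36 to -0.39 with a median of -0.98. In siRNAG5 cells the medians were 0.45 and -1.26, and without the libraries that stood apart they were 0.38 and -0.89 in Ctrl and 0.67 and -1.03 in siRNAG5 cells. Under 1000 nt the 4 members had a median of -0.14 and 657 genes one of -0.19 in Ctrl cells. Over all 38 members Spearman's rho of length with this log2 FC was -0.41 in Ctrl cells, and over 11744 protein-coding genes it was 0.36. In siRNAG5 cells it was -0.38 over members and 0.39 over genes. Without the libraries that stood apart the members' rho was -0.33 in Ctrl and -0.12 in siRNAG5 cells, so the value in siRNAG5 cells rested on 2 libraries. The points share the same 8 libraries and are not independent.

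**Figure D4:**
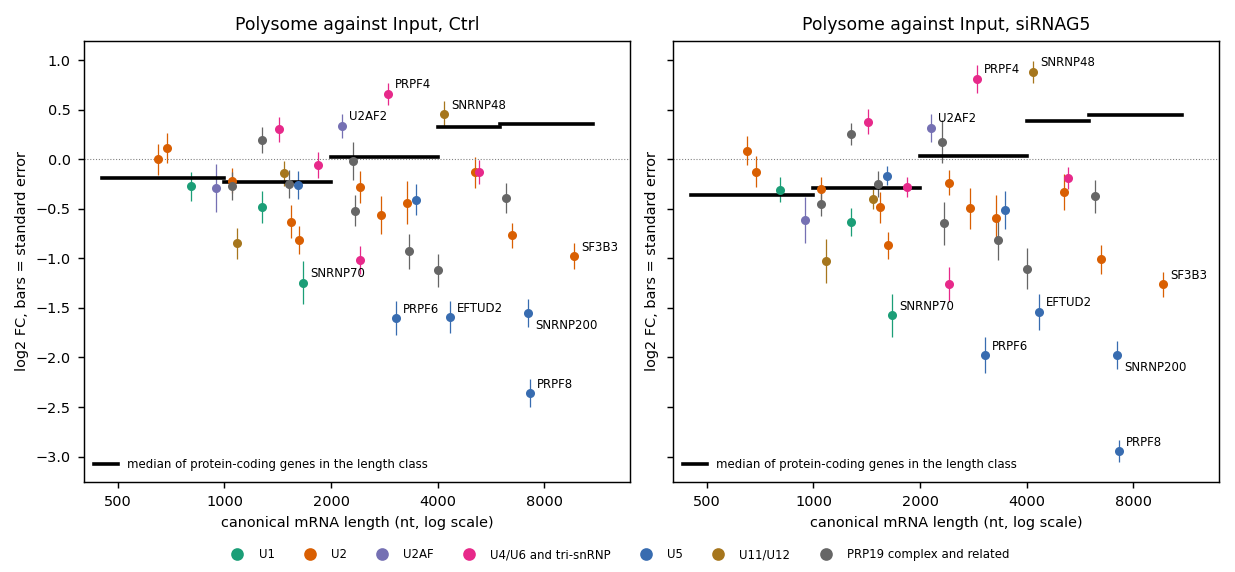
Polysome against Input log2 FC with its standard error against canonical mRNA length (log scale) in Ctrl (left) and siRNAG5 (right) cells, with points coloured by particle and black bars at the median of all protein-coding genes of each length class. The U5 mRNAs PRPF8, SNRNP200, EFTUD2 and PRPF6 lie at -1.54 or below in both panels while the bars are highest in the longest class.

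The log2 FC of siRNAG5 against Ctrl was higher for longer mRNAs, over the members and over all genes. In Input the median log2 FC of protein-coding genes rose from -0.22 for mRNAs under 1000 nt (672 genes) to 0.17 over 6000 nt (2183 genes), and that of members from -0.54 (4 members) to 0.28 (5 members). Between 2000 and 4000 nt the 11 members had a median of -0.31, while the 4375 genes had 0.01. Spearman's rho of length with the Input change was 0.55 over 38 members and 0.24 over 11884 genes, and with the Polysome change 0.48 and 0.35 (0.62 and 0.45 without the 3 libraries). PRPF38A, with 5233 nt, was the longest member called lower. Spearman's rho of mean level (log2 CPM) with the Input change was -0.32 over members and -0.39 over protein-coding genes. With the Polysome change it was -0.41 and -0.45. The parts of length and of level in the members' changes were not tested.

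**Figure D5:**
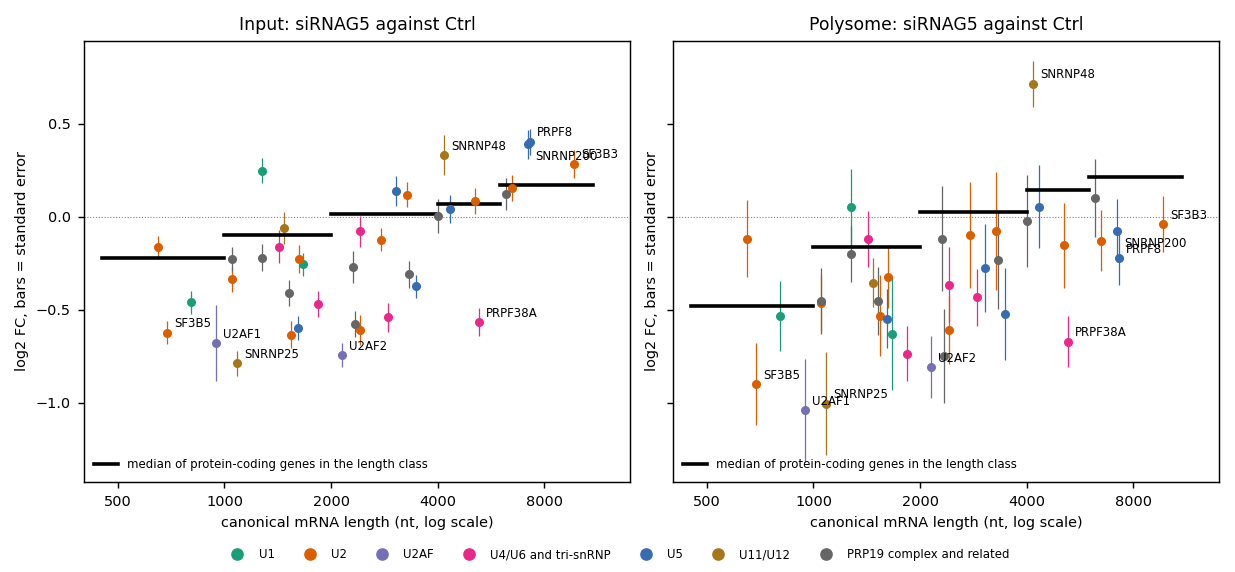
Change in siRNAG5 against Ctrl cells (log2 FC with its standard error) against canonical mRNA length (log scale) in Input (left) and Polysome (right), with black bars at the median of all protein-coding genes of each length class. The bars and the points rise with length, the members called lower lie below the bars of their class, and SNRNP48 in Polysome lies above its bar.

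Other spliceosome proteins were read from a second list of 69 genes, of which all were tested. In Input 5 (7.25%) were called lower, near the 6.02% of all genes, and 0 higher, with a median log2 FC of -0.17. They were the U1-associated LUC7L (-0.94, SE 0.09) and LUC7L3 (-0.64), SNU13 (-0.55), which binds U4 snRNA with PRPF31, the exon junction protein RBM8A (-0.54), and PHF5A (-0.53), a further SF3b subunit. In Polysome 8 (11.6%, against 4.0% of all genes) were called lower and 0 higher, with a median of -0.24. Without the 3 libraries 11 (15.9%, against 12.1%) were called lower and 1 (1.45%, against 9.02%) higher. LUC7L (-1.26, SE 0.23), TSSC4 (-0.79), PHF5A (-0.73), RBM8A (-0.72), CCDC12 (-0.67), ZMAT2 (-0.63), PPIH (-0.60) and CD2BP2 (-0.58) were the 8. TSSC4 and CD2BP2 act in the assembly of U5 and the tri-snRNP, and PPIH binds PRPF4. In Polysome against Input 18 of the 69 (26.1%, against 18.8% of all genes) were called lower and 6 (8.7%, against 20.8%) higher in Ctrl cells, and 17 (24.6%, against 21.2%) and 4 (5.8%, against 23.9%) in siRNAG5 cells. Without the libraries that stood apart, 13 (18.8%, against 19.8% of all genes) were lower and 9 (13.0%, against 21.9%) higher in Ctrl cells. In siRNAG5 cells 11 (15.9%, against 23.5%) were then lower and 11 (15.9%, against 29.7%) higher.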

How the data were processed

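RNA-seq of 16 HEK293 libraries was used, in 4 groups (Input Ctrl, Input siRNAG5, Polysome Ctrl and Polysome siRNAG5) with 4 libraries each, grouped and numbered by the sample labels. The authors made stranded poly(A) libraries, aligned reads with STAR 2.5.3a to GRCh38 (version and build from the submitters' processing notes), and counted them for each Ensembl gene with QoRTs. The deposited counts are whole numbers that were not normalized. Lines for reads on no gene (0.667 to 1.33% of reads), on more than 1 gene (4.14 to 7.41%) or at several places were left out of library sizes.

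Tests used edgeR 4.0.16 under R 4.3.3 (TMM factors, filterByExpr, quasi-likelihood test, Benjamini-Hochberg adjustment over all genes tested), in each pair of groups and, for the difference of changes, in all 16 libraries. Calls needed an adjusted p below 0.05 together with a log2 FC of more than 0.5 in size. CPM in the text were TMM-normalized over all 16 libraries, except the summed levels of the liver genes and of the members. RPKM were not TMM-normalized. The paper states 4 independent samples per condition, and p-values measure the spread between them. The members and lists were chosen with earlier results of these data known.

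Values in every library are given for members called in Input or Polysome and for the one with the largest Input change of each particle. Those of SNRNP70, RBM22, PRPF8 and SNRNP200, and the 4 promoters shown, were chosen after values were seen. Gene models were GENCODE v44 (GRCh38), a later release than the authors used, which named 57532 of 58302 identifiers. Promoters came from RefSeq (GRCh38.p14). Alternatives were DESeq2 1.42.0, a block for the replicate number, no filter on low counts, RLE factors, all 16 libraries in one fit, 1 surrogate variable (sva 3.50.0), adjusted p alone, each library left out in turn and, chosen after seeing the data, fits without the libraries that held or lacked liver reads or stood apart and a block for culture. The scripts were tested on simulated counts. Python 3.11.15, pandas 2.3.3, numpy 2.4.6 and matplotlib 3.10.9 were used. Proteins were not measured.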

Additional observations from a re-analysis of the deposited data

Results flagged for a closer look

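In 6 of the 152 member-and-group sets of 4 libraries, 1 library lay far from the other 3. Chance gives about 1 in 20 for independent sets, but these sets share libraries. The Polysome values among them were all of Ctrl 1, one of the libraries that stood apart. In Polysome Ctrl 1, SF3A2 was at 64.7 CPM (others 96.5 to 99.98), SF3B4 at 68.8 CPM (others 122.5 to 129) and RBM22 at 22.7 CPM (others 45.9 to 49.9). In Input, SNRNP40 was at 349.8 CPM in Ctrl 2 (others 297 to 302), SNRNP70 at 328 CPM in siRNAG5 4 (others 354 to 358) and SNRNP25 at 183 CPM in siRNAG5 3 (others 160.4 to 162).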

How the results depend on the processing

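In Input 10 members were called lower and 0 higher under DESeq2, RLE factors, no filter, the replicate block, the joint fit of 16 libraries and 1 surrogate variable, and 8 to 11 lower when 1 library was left out (8 without Ctrl 2). With adjusted p alone there were 22 lower and 5 higher. In Polysome the 6 calls became 10 with DESeq2, 14 in the joint fit, 11 with 1 surrogate variable, 13 without the 3 libraries that stood apart, and 0 to 6 when 1 library was left out, while 1 was called higher throughout. The cause of these shifts was not tested. All genes called lower in Polysome numbered 577, against 1101 with DESeq2, 941 with no filter, 1520 in the joint fit, 1427 with 1 surrogate variable 1788 without the 3 libraries and 113 to 836 when 1 library was left out, and those called higher 569, against 1077 in the joint fit, 1572 with 1 surrogate variable, 1327 without the 3 libraries and 76 to 687 when 1 library was left out. In Input adjusted p alone gave 2695 genes lower and 2535 higher. For the difference between the fractions edgeR called 0 genes, against 11 lower and 18 higher with DESeq2, 29 and 28 with no filter, 346 and 110 with 1 surrogate variable and 659 and 106 without the 3 libraries. For the difference between the fractions 1 member (PRPF8) passed with 1 surrogate variable and 2 without the 3 libraries. In Polysome against Input 12 to 17 members were lower and 1 to 2 higher in Ctrl cells and 13 to 18 lower in siRNAG5 cells when 1 library was left out. Those higher in Ctrl cells were 3 with adjusted p alone and 2 without the Input libraries with liver reads, a fit that leaves such reads in Polysome only. Without the 2 Input Ctrl libraries that lack them, so that all libraries compared held liver reads, 13 were lower and 1 higher, and those higher in siRNAG5 cells were 4 without the 2 libraries that stood apart. No called value changed sign. Whether the replicate numbers pair the samples was not settled. Same-number correlations of deviations ran from -0.607 to 0.545 between Polysome Ctrl and siRNAG5 and from -0.044 to 0.072 between the Input groups. Between Input and Polysome they ran from -0.085 to 0.222 in Ctrl and from -0.226 to 0.227 in siRNAG5 cells. There the same number was the best match for 2 libraries in each treatment. The 3 Polysome libraries that stood apart enter these values, so they cannot exclude a pairing. The paper fractionated individual lysates, but nothing used here ties the numbers of Input and Polysome libraries to 1 lysate. With the replicate block 10 members were called lower in Input and 6 in Polysome, as without it, and in Polysome against Input 17 instead of 15 in Ctrl and 18 instead of 17 in siRNAG5 cells. Depth limits U2AF1, with 20 to 54 reads per library.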

Other observations

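Base composition was set against the difference between the fractions. Spearman's rho of GC percent of the canonical mRNA with the change in Polysome minus that in Input was -0.56 over the 38 members and -0.37 over 12433 protein-coding genes, as a description over points that share the same 16 libraries. Without the 3 Polysome libraries that stood apart it was -0.38 over both.

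The letters AAGAGAA, which pair with the seed of the siRNA shown above, stood in the canonical 3′ UTR of 1 of the 10 members called lower in Input, PRPF38A, with 3 matches in 4146 bases. Of the other 28 members 4 held them: SNRPC, SF3A1 and PLRG1 once and EFTUD2 at 2 places. The share over 11883 genes tested in Input was 24.9%. The first match of PRPF38A and that of SNRPC are given with 10 bases on each side and the matching letters in capitals.
PRPF38A: ctcccttaaaAAGAGAAaagtgatgga
SNRPC: tgtcctatgaAAGAGAAtagttttgga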
